A study of Mus musculus with 4 samples.

Results

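The genes described here belong to a set of glycolytic enzymes, glucose and lactate transporters, regulators of the entry of pyruvate into mitochondria, and other targets of the transcription factor HIF1A. Members were taken from the count table by gene symbol from a list of 38 symbols. The table held 37 of them, among 23337 gene symbols in all. The remaining symbol, *Pkm*, had no row of its own, and the gene is listed in the table under its older symbol *Pkm2*. The cells were medullary thymic epithelial cells (mTECs), which display self-antigens to developing T cells, sorted as CD45- EpCAM+ UEA-1+ Ly51- from the thymus of C57BL/6 mice aged 4 weeks. RNA was sequenced in 2 WT libraries and in 2 libraries labelled *Sirt6* cKO (genotype *Sirt6*-/- in the sample labels), called cKO-labelled libraries or cKO below. In the cKO mice both *Sirt6* alleles are flanked by loxP sites and are deleted by a Cre recombinase under the control of *Foxn1*, a gene of thymic epithelium. The WT mice carried no *Foxn1*-Cre and were either littermates of the same age or other mice matched for age. Loss is aimed at thymic epithelial cells and not at the thymocytes or blood-derived cells of the thymus. The study describes the samples of a group as independent and parallel, without stating whether each came from its own animal, so p-values measure the spread between these libraries, which may be in part technical.

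Glycolysis breaks glucose down to pyruvate in the cytosol, after glucose has entered through facilitative transporters. Pyruvate is then either reduced to lactate, which leaves the cell through monocarboxylate transporters, or oxidised in mitochondria by pyruvate dehydrogenase, which pyruvate dehydrogenase kinases (PDKs) switch off. HIF1A is an oxygen-controlled transcription factor that is marked for destruction by prolyl hydroxylases when oxygen is present and that, when stable, switches on most of these genes through short hypoxia response elements in their promoters and enhancers. SIRT6 is a deacetylase of histone H3 that is known from other cell types as a repressor of HIF1A-driven glycolytic genes. The comparison therefore asks whether these genes rise in mTECs labelled *Sirt6* cKO. For sorted mTECs, the study reports no increase of acetylation after loss of *Sirt6*. It proposes that deacetylation by SIRT6 may not be central to mTEC development.

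The core of a hypoxia response element is read as ACGTG or GCGTG, on either strand. In the RefSeq promoter table for GRCm38.p6, 36 of the 37 members had at least 1 promoter, and 33 of these (91.7%) held a core in the 250 bases before a start site. The share over all genes with a promoter was 41.5%, and over all genes that were tested for expression and had a promoter it was 53.8%. Genes with several start sites have more windows to match. Counted by promoter instead, 43 of 56 member promoters (76.8%) held a core, against 38.6% of all promoters. The windows of the members with the smallest p, *Pdk4* and *Eno2*, are shown first, followed by those of *Hk2* and *Pgk1*, textbook targets of HIF1A. Each is given 5′ to 3′ on the strand of its gene, cut back to bases outside annotated exons, with the cores in capitals (CACGT is ACGTG read on the other strand).
*Pdk4* (chr6:5496310-5496528, minus strand): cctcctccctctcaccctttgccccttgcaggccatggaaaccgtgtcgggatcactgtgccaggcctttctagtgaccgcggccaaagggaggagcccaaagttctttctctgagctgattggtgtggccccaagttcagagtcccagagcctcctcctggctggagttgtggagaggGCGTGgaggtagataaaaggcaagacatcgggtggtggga
*Eno2* (chr6:124769674-124769862, minus strand): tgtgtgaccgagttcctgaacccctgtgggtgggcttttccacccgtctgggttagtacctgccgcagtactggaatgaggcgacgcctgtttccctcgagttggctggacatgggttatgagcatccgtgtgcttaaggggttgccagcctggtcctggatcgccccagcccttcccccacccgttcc
*Hk2* (chr6:82774455-82774704, minus strand): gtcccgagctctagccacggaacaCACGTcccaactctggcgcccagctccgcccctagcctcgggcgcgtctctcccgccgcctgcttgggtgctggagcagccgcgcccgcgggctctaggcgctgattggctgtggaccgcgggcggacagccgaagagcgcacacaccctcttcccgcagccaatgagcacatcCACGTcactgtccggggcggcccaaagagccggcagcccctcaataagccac
*Pgk1* (chrX:106186850-106187099, plus strand): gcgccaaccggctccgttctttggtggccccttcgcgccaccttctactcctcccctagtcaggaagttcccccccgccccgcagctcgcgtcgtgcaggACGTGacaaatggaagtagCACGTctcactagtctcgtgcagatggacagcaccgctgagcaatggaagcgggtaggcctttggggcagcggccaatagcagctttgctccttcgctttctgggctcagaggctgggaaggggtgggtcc
The *Pdk4* window held 1 core, close to its start site, and the *Eno2* window held none. The windows of *Hk2* and *Pgk1* held 2 cores each. A match is a string of letters and was not tested as a binding site, and sites farther from the start were not searched.

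The libraries held between 61102704 and 65907745 counts. *Sirt6* (chromosome 10, 81621785 to 81627797, minus strand) had 622 and 755 WT counts against 882 and 835 in the cKO-labelled libraries. The cKO-labelled libraries were thus the higher ones, with a log2 fold change of 0.37 (SE 0.32) and an adjusted p of 0.80 by edgeR's quasi-likelihood test with Benjamini-Hochberg adjustment. These are counts over the whole gene, and the sources used here do not say which exons are deleted, so the genotype could not be checked in these libraries and the groups are named by their labels throughout. The study examined loss of SIRT6 separately and reports that the gene was inactivated. It used western blot of cultured thymic epithelial cells and quantitative PCR of sorted medullary and cortical thymic epithelial cells. The 12 mTEC markers were all detected, with a summed level between 21700 and 23709 TPM (StringTie transcripts scaled per length and library). Most of that sum was *H2-Aa*, an MHC class II gene that macrophages, dendritic cells and B cells also express, and without it the sum was 6433 and 7588 TPM in WT and 6941 and 8439 TPM in cKO. Over all 18547 genes tested, 977 (5.27%) were higher in cKO and 615 (3.32%) lower at an unadjusted p under 0.05, so that 61.4% of these calls were higher. That split was 48.4% under upper quartile scaling and 46.2% when scaled by library size alone. A single gene (0.00539%) passed an adjusted p of 0.05.

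All 37 members passed the filter on low counts. At an unadjusted p under 0.05, *Pdk4* and *Eno2* were higher in the cKO-labelled libraries and no member was lower. That is 5.41% of the members, against 5.27% of all genes tested, so the share called higher was that of the background. With edgeR, 0 members passed after Benjamini-Hochberg adjustment over all genes (lowest adjusted p 0.541). With DESeq2, the tool of the original processing, 2 members passed an adjusted p of 0.05, again *Pdk4* and *Eno2*, against a background of 1.03% of genes called higher and 0.795% called lower. Of the log2 fold changes, 21 were above 0 and 16 below, with a median of 0.06 against -0.00 over all genes tested, and the median of the members was below 0 under other scalings (-0.01 by upper quartile, -0.03 by library size alone). The median size of a member's log2 fold change was 0.29 without its sign, against 0.40 over all genes. The median SE was 0.24 for the members and 0.41 over all genes, so these sizes carry unlike error and are not directly comparable. The libraries of both groups did not overlap in 25 members (67.6%), 15 of them with the cKO-labelled libraries higher and 10 with them lower, against 41.9% of all genes tested (21.6% higher and 20.3% lower). In 26 of the 37 members the whole 95% interval lay below a log2 fold change of 1, a fold change of 2.

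**Figure D1:**
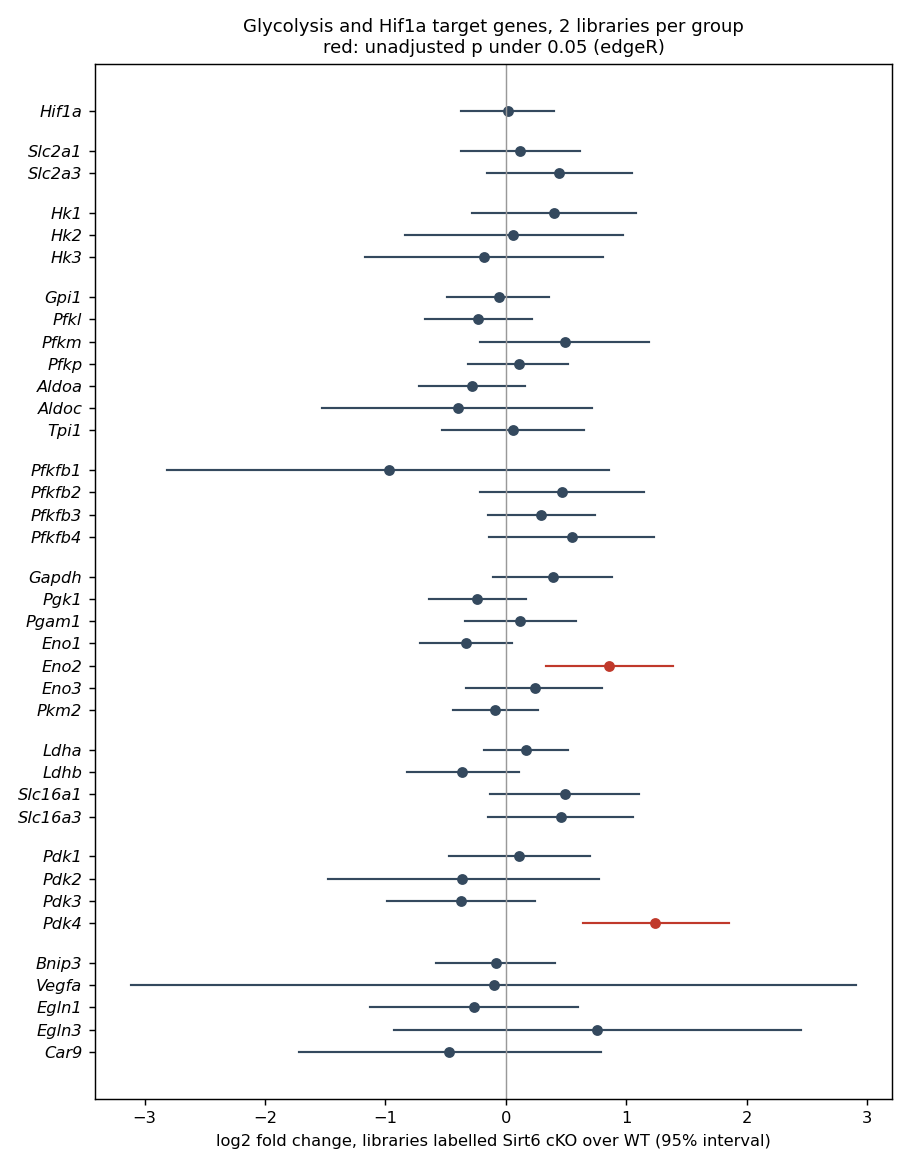
Log2 fold change of each of the 37 members, cKO-labelled libraries over WT, with the 95% interval from edgeR (horizontal axis), grouped by role from the regulator at the top to other HIF1A targets at the bottom. *Eno2* at 0.86 and *Pdk4* at 1.24, in red, are the members with an unadjusted p under 0.05, and every other interval includes 0.

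The transcription factor itself, *Hif1a* (chromosome 12, 73901375 to 73947530, plus strand), had 21536 and 22973 WT counts against 21158 and 22253 in the cKO-labelled libraries. The groups overlapped, at 345 ± 22.6 CPM (counts scaled to library size with TMM factors, mean ± SD, n = 2 libraries) in WT and 349 ± 2.57 CPM in cKO. The log2 fold change of 0.02 had a 95% interval from -0.37 to 0.40 (edgeR adjusted p = 0.987). Its mean level over the 4 libraries was 160 TPM, rank 12 among the members. HIF1A is controlled mainly at the level of protein stability, which these counts do not measure.

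*Pdk4* (chromosome 6, 5483351 to 5496309, minus strand), the PDK induced by fasting and fatty acid use, had the smallest p among the members. It had 2193 and 1707 WT counts against 4339 and 4551 in the cKO-labelled libraries. Both cKO-labelled libraries lay well above both WT libraries, at 71.4 ± 0.665 against 30.2 ± 4.72 CPM. The fold change was 2.37, or 1.24 on the log2 scale (SE 0.24, 95% interval 0.64 to 1.85), past the unadjusted threshold, with an adjusted p of 0.541 by edgeR's quasi-likelihood test with Benjamini-Hochberg adjustment. DESeq2 gave an adjusted p of 0.00156. In 12 alternative settings, including each library left out in turn, the log2 fold change of *Pdk4* stayed between 1.09 and 1.39 and the unadjusted p under 0.05.

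The other kinases that switch off pyruvate dehydrogenase were not called. *Pdk1*, a textbook HIF1A target, had 4823 and 3599 WT counts against 4376 and 4384 in the cKO-labelled libraries. These groups overlapped, with a log2 fold change of 0.11 (95% interval -0.47 to 0.70). *Pdk3*, which is also known as inducible by hypoxia, had 2194 and 2234 WT counts against 1587 and 1714 in the cKO-labelled libraries. Both cKO-labelled libraries lay below WT (log2 fold change -0.37, edgeR adjusted p = 0.723). *Pdk2*, the widely expressed isoform, had 344 and 332 against 246 and 263 counts, again with both cKO values below WT and far from the threshold (log2 fold change -0.36, edgeR adjusted p = 0.881).

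Enolase makes phosphoenolpyruvate, and the log2 fold changes of its 3 isoenzymes ran from -0.33 to 0.86. *Eno2* (chromosome 6, 124760053 to 124769673, minus strand), known as neuron-specific enolase, had 2634 and 2522 WT counts against 4471 and 4547 in the cKO-labelled libraries. The groups were far apart and tight, at 39.9 ± 0.432 and 72.5 ± 2.26 CPM. The fold change was 1.81, or 0.86 on the log2 scale (SE 0.21, 95% interval 0.33 to 1.39), past the unadjusted threshold, with an adjusted p of 0.541 by edgeR's quasi-likelihood test with Benjamini-Hochberg adjustment. DESeq2 gave an adjusted p of 0.0362, and over the 12 alternatives the log2 fold change of *Eno2* ranged from 0.77 to 0.86. The 8 markers of neuroendocrine mTECs were 0 of 8 higher and 1 of 8 lower (*Scg2*), against 5.27% and 3.32% of all genes tested. Their summed level was 186 and 171 TPM in WT and 167 and 163 TPM in cKO, and none was at 0 in all libraries.

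*Eno1*, the isoenzyme of most tissues and by far the more abundant, had 35570 and 36418 WT counts against 25325 and 30117 in the cKO-labelled libraries. Both cKO values were below both WT values, but the log2 fold change of -0.33 (SE 0.15) did not pass (edgeR adjusted p = 0.631), while scaling by library size alone put it past the unadjusted threshold (-0.42). Of the 50-base words in the exons of *Eno1*, 72.2% also occur in another annotated gene, chiefly the close copy that the table lists as *Gm5506*, so reads could be split between them. Summed over *Eno1* and *Gm5506*, the level was 641 ± 0.645 CPM in WT and 502 ± 18.2 CPM in cKO, and the groups again did not overlap. The muscle isoenzyme *Eno3* had 4042 and 3228 WT counts against 3909 and 4340 in the cKO-labelled libraries, with cKO above WT after scaling and a log2 fold change of 0.24 (edgeR adjusted p = 0.823).

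**Figure D2:**
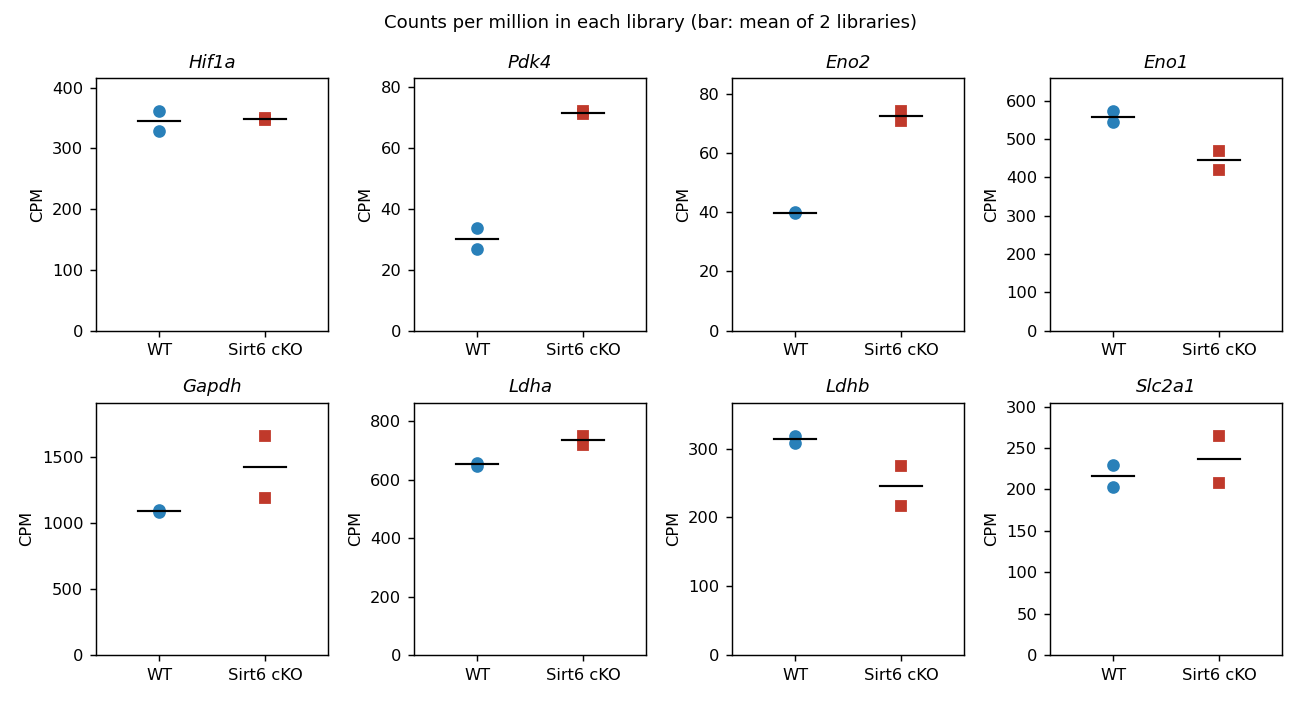
TMM-scaled CPM in each library for 8 members, with WT as circles, libraries labelled *Sirt6* cKO as squares and the mean of 2 libraries as a bar; every axis starts at 0. *Pdk4* and *Eno2* are separated by group with little spread, *Eno1* and *Ldhb* lie lower in cKO, *Gapdh* is spread by the library labelled *Sirt6* cKO 1, and *Hif1a* and *Slc2a1* overlap.

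Of the facilitative glucose transporters among the members, *Slc2a1* (GLUT1) had a mean of 193 TPM and *Slc2a3* (GLUT3) one of 28.6 TPM. *Slc2a1*, a standard HIF1A target, had 15049 and 12944 WT counts against 12538 and 16974 in the cKO-labelled libraries. The groups overlapped, with the library labelled *Sirt6* cKO 2 the highest, and the log2 fold change of 0.12 had a 95% interval from -0.37 to 0.62. *Slc2a3* had 3200 and 2466 against 3716 and 3691 counts, with both cKO-labelled libraries above WT and a log2 fold change of 0.44 (edgeR adjusted p = 0.668).

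Hexokinases trap glucose in the cell as glucose 6-phosphate. *Hk1*, the most abundant of them at a mean of 46.2 TPM, had 5030 and 4706 WT counts against 7328 and 5012 in the cKO-labelled libraries. The library labelled *Sirt6* cKO 1 stood apart, and the log2 fold change of 0.40 was 0.05 without it. *Hk2*, the hypoxia-inducible isoform, had 1206 and 1892 against 1277 and 1869 counts, nearly the same pair of values in both groups (log2 fold change 0.06, 95% interval -0.84 to 0.97). *Hk3*, known from myeloid cells, had 1044 and 851 against 999 and 599 counts, with overlapping groups and a log2 fold change of -0.18.

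The upper steps, from glucose 6-phosphate to triose phosphates, had no member past the threshold, and their log2 fold changes ran from -0.40 (*Aldoc*) to 0.49 (*Pfkm*). *Aldoa*, the most abundant of them at a mean of 313 TPM, had 14127 and 16426 WT counts against 11866 and 12424 in the cKO-labelled libraries. Both cKO-labelled libraries lay below WT (log2 fold change -0.28, edgeR adjusted p = 0.715). *Aldoc*, the aldolase of brain, had 341 and 430 against 243 and 322 counts, also without overlap after scaling. Phosphofructokinase commits sugar to glycolysis and has 3 isoenzymes. *Pfkm*, the muscle form, had 1039 and 978 WT counts against 1243 and 1491 in the cKO-labelled libraries, with both cKO-labelled libraries above WT (edgeR adjusted p = 0.687). *Pfkl*, the liver form and the most abundant in these cells, had 12692 and 14483 against 10466 and 12005 counts, with both cKO-labelled libraries below WT (log2 fold change -0.23, edgeR adjusted p = 0.777). The platelet form *Pfkp* and the isomerases *Gpi1* and *Tpi1* had log2 fold changes of 0.11, -0.06 and 0.06.

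The PFKFB enzymes set the level of fructose 2,6-bisphosphate, the strongest activator of phosphofructokinase. Of these, 3 had log2 fold changes above 0 and none passed. *Pfkfb4*, a hypoxia-inducible member, had 1506 and 1970 WT counts against 2426 and 2477 in the cKO-labelled libraries, a log2 fold change of 0.55 (95% interval -0.14 to 1.23, edgeR adjusted p = 0.642). *Pfkfb3*, the most abundant and the one with the strongest kinase activity, had 7655 and 6918 against 8174 and 9036 counts (log2 fold change 0.29, edgeR adjusted p = 0.707). *Pfkfb2*, the heart form, had a log2 fold change of 0.47, and in all 3 genes both cKO-labelled libraries exceeded both WT libraries. *Pfkfb1*, the liver form, went the other way with 233 and 297 against 68 and 196 counts, a log2 fold change of -0.97 with the wide 95% interval from -2.81 to 0.86.

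The lower steps, which regain ATP and NADH, held the most abundant members. *Gapdh*, at a mean of 2237 TPM, had 70995 and 69735 WT counts against 100292 and 76257 in the cKO-labelled libraries. The WT libraries were nearly equal and the library labelled *Sirt6* cKO 1 was the high one. The log2 fold change of 0.39 (edgeR adjusted p = 0.645) ranged from 0.13 without that library to 0.58, past the unadjusted threshold, without the library labelled *Sirt6* cKO 2. *Gapdh* shares 27.2% of its 50-base words with other annotated genes, 213 in number. *Pkm2*, pyruvate kinase, had 81332 and 71463 against 64539 and 74081 counts, which overlapped after scaling (log2 fold change -0.09, 95% interval -0.44 to 0.27). *Pgk1*, whose promoter is shown above, had 16733 and 15303 WT counts against 13117 and 13039 in the cKO-labelled libraries, with both cKO values below WT (log2 fold change -0.24, edgeR adjusted p = 0.734) and 68.0% of its words shared, almost all with the copy *Pgk1-rs7*. *Pgam1* overlapped, with a log2 fold change of 0.12. Other annotated genes also share 41.5% of the words of *Pgam1* and 34.4% of those of *Pkm2*.

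Summed over the 17 enzymes of the 10 steps, the level was 5148 and 5261 TPM in WT and 5897 and 5145 TPM in the cKO-labelled libraries, so the groups overlapped. *Gapdh* alone made up much of this sum. Without it the sum was 3239 and 3277 TPM in WT and 2959 and 3029 TPM in cKO, and every cKO value was below every WT value. Summed over all members, with *Gapdh*, transporters, regulators and other targets included, the level was 8048 and 8094 TPM in WT and 8621 and 8211 TPM in cKO. Every cKO value lay above every WT value. *Gapdh* itself was 1909 and 1984 TPM in WT and 2938 and 2116 TPM in cKO. With *Gapdh* taken out of this sum too, both cKO values would lie below both WT values. TPM are shares of each library's total, so these sums describe the make-up of the RNA and not its amount per cell.

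Lactate dehydrogenase converts pyruvate to lactate and back, and *Ldha* is the subunit that HIF1A induces. *Ldha* had 43173 and 41209 WT counts against 45323 and 46048 in the cKO-labelled libraries. The cKO-labelled libraries lay above WT without overlap, by little (log2 fold change 0.17, 95% interval -0.18 to 0.52, edgeR adjusted p = 0.791). *Ldhb*, the subunit of heart and of lactate-using tissues, had 20885 and 19693 against 13068 and 17626 counts, with both cKO-labelled libraries below WT (log2 fold change -0.36, edgeR adjusted p = 0.653). The ratio of *Ldha* to *Ldhb* TPM was 1.61 and 1.64 in WT and 2.69 and 2.04 in cKO. Other annotated genes share 16.6% of the 50-base words of *Ldha* and 27.0% of those of *Ldhb*, so reads of both could be split.

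The monocarboxylate transporters carry lactate across the membrane. *Slc16a1* (MCT1) had 9960 and 6637 WT counts against 11845 and 10499 in the cKO-labelled libraries. Both cKO-labelled libraries lay above WT, with a log2 fold change of 0.49 (edgeR adjusted p = 0.645). With a library left out, this log2 fold change ranged from 0.24 without WT 2 to 0.76 without WT 1, the higher WT library. *Slc16a3* (MCT4), the lactate exporter that HIF1A induces, had 3234 and 2466 against 3547 and 3995 counts, also without overlap (log2 fold change 0.46, edgeR adjusted p = 0.658).

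Members outside energy metabolism gave no call. *Bnip3*, a mitophagy receptor and a strong HIF1A target, was abundant, with 43769 and 38862 WT counts against 30950 and 44561 in the cKO-labelled libraries. The cKO-labelled libraries lay on both sides of WT (log2 fold change -0.08, 95% interval -0.58 to 0.41). The prolyl hydroxylase *Egln3*, itself switched on by HIF1A, had 134 and 107 against 228 and 163 counts, a log2 fold change of 0.76 (SE 0.67, edgeR adjusted p = 0.807). *Egln1*, the main oxygen sensor, had overlapping groups at -0.26. *Car9*, carbonic anhydrase IX and a widely used marker of hypoxia, had 401 and 413 WT counts against 191 and 383 in the cKO-labelled libraries, with only the library labelled *Sirt6* cKO 1 far from the rest (log2 fold change -0.47, 95% interval -1.72 to 0.79). *Vegfa*, the angiogenic factor, was the least abundant member at a mean of 0.996 TPM, with 54 and 122 against 132 and 24 counts, which leaves a wide 95% interval from -3.11 to 2.91.

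Where a step is served by several isoenzymes, the share of each in the summed TPM of the step shows which form the RNA encodes. The share of *Pdk4* among the PDKs was 22.5% and 20.1% for WT against 41.7% and 41.9% for the cKO-labelled libraries. Its mean went from 21.3% ± 1.69 to 41.8% ± 0.124 (SD, n = 2 libraries), while the share of *Pdk3* was 38.9% and 45.4% in WT and 26.4% and 27.2% in cKO. By TPM the most abundant PDK was thus *Pdk3* in both WT libraries and *Pdk4* in both cKO-labelled libraries. By CPM, which does not correct for length, *Pdk1* held the largest share in both WT libraries (50.5% and 45.7%) and, just ahead of *Pdk4* (41.5% and 41.1%), in the library labelled *Sirt6* cKO 1. The share of *Eno2* among the enolases was 4.20% and 4.05% in WT and 9.11% and 7.97% in cKO, and that of *Eno1* was 84.1% and 86.6% against 76.4% and 78.2%. *Eno1* was the main enolase RNA in every library. The share of *Ldhb* in lactate dehydrogenase was 38.4% and 37.9% in WT and 27.1% and 32.9% in cKO, and that of *Pfkl* in phosphofructokinase was 54.7% and 58.3% against 48.7% and 51.2%. In all, 20 of 26 isoenzymes in 9 steps had shares that did not overlap between the groups. By CPM, 18 of these also did not overlap, but *Pfkfb2* among them changed direction. Its share was 9.66% and 9.68% in WT and 9.31% and 9.4% in cKO by TPM. By CPM it was 10.9% and 12.4% in WT and 12.9% and 12.6% in cKO. No background was computed for shares. In level, an unlike measure, 67.6% of the members and 41.9% of all genes tested did not overlap. Shares of a step sum to 100%, so they are not independent, and with 2 libraries a group an exact permutation test cannot go below p = 0.333.

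**Figure D3:**
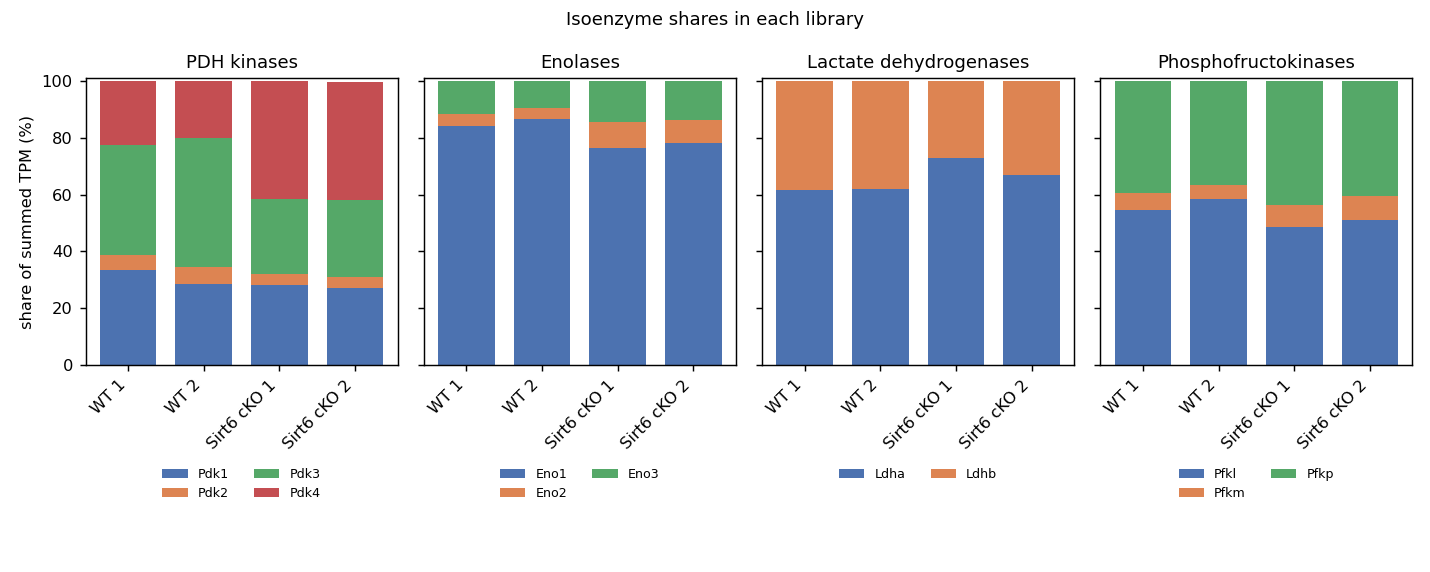
Share of each isoenzyme in the summed TPM of its step (vertical axis, percent), 1 stacked bar per library, for the PDKs, enolases, lactate dehydrogenases and phosphofructokinases. The *Pdk4* segment is 20.1% to 22.5% in WT and 41.7% to 41.9% in cKO, and the *Ldhb* segment is smaller in both cKO-labelled libraries than in either WT library.

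Altogether 5 lists of 97 further genes show the surroundings of the members in the pathway. Over all genes tested, 5.27% were higher and 3.32% lower at an unadjusted p under 0.05 with edgeR. Of 34 other genes of glycolysis, pyruvate use and sugar transport, 33 were tested and 0 passed an unadjusted p of 0.05 with edgeR (1 with DESeq2), with a median log2 fold change of 0.00. *Pgk2*, the germ cell form of *Pgk1*, had 0 counts in all libraries. The extremes were *Pklr*, the pyruvate kinase of liver and red cells, at -0.64, and *Pdp1*, the phosphatase that undoes the action of the PDKs, at 2.22. *Pdp1* had 122 and 253 WT counts against 1480 and 169 in the cKO-labelled libraries, so its value rested on the library labelled *Sirt6* cKO 1 and was -0.15 without it. Of 14 partners of HIF1A, such as its dimerisation partners and the complex that degrades it, 0 passed with edgeR or DESeq2. Their median log2 fold change was 0.08, from -0.28 (*Tceb2*) to 0.65 (*Hif1an*).

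Of 8 genes of gluconeogenesis, which makes glucose from smaller molecules, 2 were lower and 0 higher at an unadjusted p under 0.05 with edgeR. The shares over all genes tested were 3.32% and 5.27%. With DESeq2, 2 were lower and 1 higher (*Pcx*, log2 fold change 0.72). *Fbp2*, the fructose bisphosphatase of muscle, had 948 and 889 WT counts against 250 and 503 in the cKO-labelled libraries (log2 fold change -1.25, SE 0.43, edgeR adjusted p = 0.548). *Pck1*, the rate-limiting enzyme, had 2900 and 5406 against 1318 and 2364 counts (log2 fold change -1.14, SE 0.43, edgeR adjusted p = 0.563). In both genes each cKO library was below each WT library, but *Fbp2* missed the unadjusted threshold with WT 1, WT 2 or *Sirt6* cKO 1 left out, and *Pck1* with WT 2 or *Sirt6* cKO 1 left out. Markers of muscle-like cells were also 2 of 8 lower (*Ckm* and *Acta1*), against 3.32% of all genes tested. Their summed level was 193 and 302 TPM in WT and 137 and 152 TPM in cKO, and their part in the *Fbp2* result was not tested. The highest gene of the list was *G6pc*, the last enzyme of the pathway, at 1.07 (SE 0.7). It had 311 and 114 WT counts against 257 and 608 in the cKO-labelled libraries, and its groups overlapped.

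The pentose phosphate pathway branches from glucose 6-phosphate and makes NADPH and ribose. Of 8 genes of it, 1 was higher (12.5%, against 5.27% of all genes tested) and 0 lower (against 3.32%), with a median log2 fold change of 0.26. *Tkt*, transketolase, had 40335 and 38026 WT counts against 50805 and 56054 in the cKO-labelled libraries. Both cKO-labelled libraries were higher, at 858 ± 22.7 against 607 ± 13.2 CPM (log2 fold change 0.50, SE 0.14, edgeR adjusted p = 0.541), and it missed the unadjusted threshold with WT 1, WT 2 or *Sirt6* cKO 2 left out. *Taldo1*, transaldolase, the other enzyme of the non-oxidative branch that moves carbon units, was the lowest of the list at -0.25, and *H6pd* the highest at 0.60.

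Among 33 other targets of HIF1, 3 were higher (9.09%, against 5.27% of all genes tested) and 2 lower (against 3.32%) at an unadjusted p under 0.05. The median log2 fold change was 0.03. None passed the adjusted threshold with edgeR (adjusted p from 0.541 to 0.550 for these 5). With DESeq2, 3 did, against 1.03% of all genes called higher and 0.795% called lower. *Hmox1*, haem oxygenase, had 10218 and 9991 WT counts against 17946 and 18975 in the cKO-labelled libraries. The groups were far apart, with a log2 fold change of 0.92 (SE 0.16, edgeR adjusted p = 0.541, DESeq2 adjusted p = 0.00162). *Edn1*, the vasoconstrictor endothelin, had 1955 and 1532 against 3485 and 4814 counts (log2 fold change 1.30, SE 0.27, edgeR adjusted p = 0.541, DESeq2 adjusted p = 0.00414). *Ak4*, a mitochondrial adenylate kinase, had 1432 and 893 against 334 and 284 counts and was lower (log2 fold change -1.85, SE 0.39, edgeR adjusted p = 0.541, DESeq2 adjusted p = 0.00918). For these genes, named for their small p, both libraries of a group lay on the same side of the other group. That was so in 41.9% of all genes tested.

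The other calls of that list were less firm. *Tfrc*, the transferrin receptor, had 6217 and 4202 against 10169 and 7397 counts (log2 fold change 0.82, SE 0.29, edgeR adjusted p = 0.550). *Lox*, lysyl oxidase, had 440 and 1059 against 152 and 243 counts (log2 fold change -1.89, SE 0.58, edgeR adjusted p = 0.541). Their groups did not overlap, but *Tfrc* and *Lox* missed the unadjusted threshold with WT 2 or *Sirt6* cKO 1 left out.

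**Figure D4:**
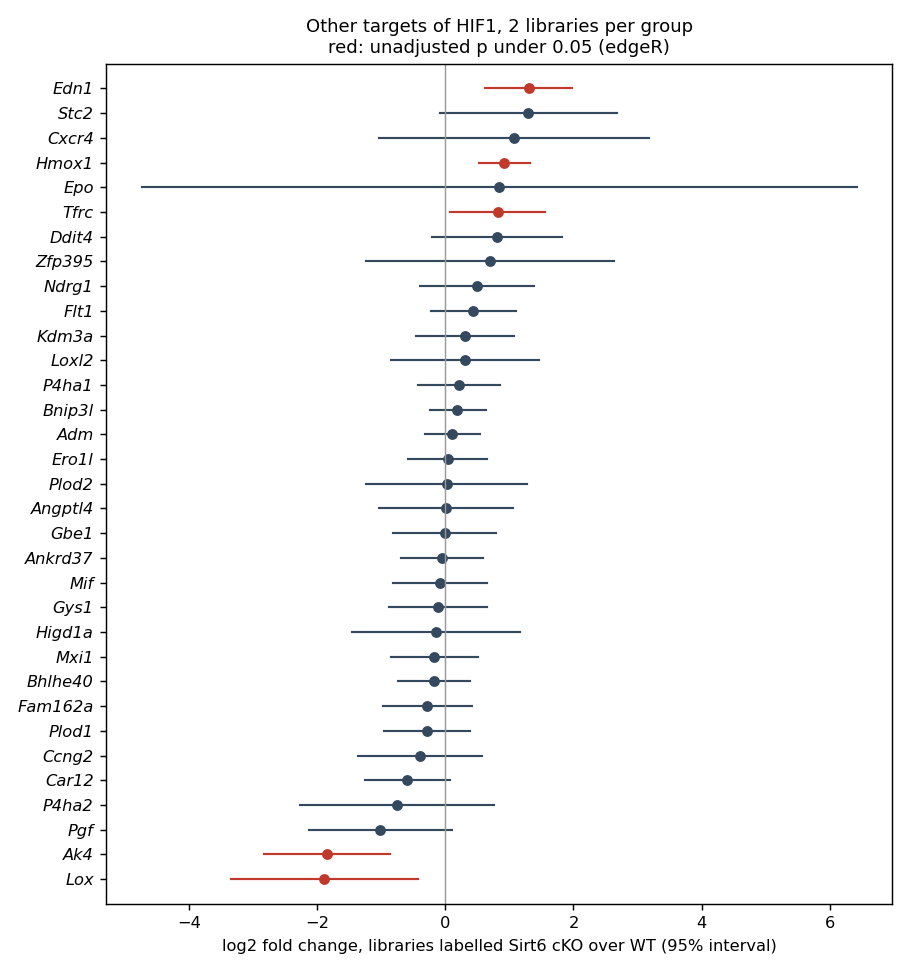
Log2 fold change of 33 HIF1 targets outside the member list, cKO-labelled libraries over WT, with the 95% interval from edgeR (horizontal axis), ordered from highest to lowest. The 5 genes in red have an unadjusted p under 0.05, 3 above 0 and 2 below, and the median of the list is 0.03.

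Markers of other cell populations differed in level between the libraries. None passed an adjusted p of 0.05 with edgeR, while some did with DESeq2, and the calls below are at an unadjusted p under 0.05. Over all genes tested, 5.27% were higher and 3.32% lower at that threshold. Of 9 markers of macrophages and dendritic cells, 5 were lower (*Lyz2*, *Cd68*, *Emr1*, *C1qa*, *C1qb*) and 0 higher, with a summed level of 11081 and 6608 TPM in WT and 4090 and 4385 TPM in cKO. Of 8 tuft cell markers, 5 were lower, from 527 and 618 TPM to 256 and 263 TPM. Of 10 genes that respond to tissue dissociation, 5 were higher, at 12675 and 14207 TPM in WT and 14734 and 16740 TPM in cKO. None of these markers was at 0 in all libraries. Among 7 markers of cortical thymic epithelial cells, 2 were higher (*Ly75* at a log2 fold change of 1.14 and *Dll4* at 1.08). In 4 of the 7 the log2 fold change was below 0 (lowest *Prss16* at -0.41), and the median was -0.11. Their summed level was 959 and 909 TPM in WT and 934 and 656 TPM in cKO. Of 4 erythroid markers tested, 1 was lower (*Hba-a2*, log2 fold change -1.56, edgeR adjusted p = 0.541, DESeq2 adjusted p = 0.000574), and all 5 in the list summed to 199 and 250 TPM in WT and 102 and 129 TPM in cKO. Thymocyte markers (0 of 8 called) summed to 1176 and 866 TPM in WT and 1037 and 650 TPM in cKO. Markers of B cells (0 of 4 called) summed to 244 and 203 TPM in WT and 212 and 162 TPM in cKO, and those of fibroblasts and endothelium (0 of 6 called) to 87.6 and 95.9 TPM in WT and 96.0 and 97.4 TPM in cKO. Of 12 mTEC markers, 4 were higher (*Epcam*, *Aire*, *Cd80*, *Foxn1*). In bulk RNA, fewer cells of a type and less RNA per cell cannot be told apart, and the part of these shifts in the values of *Hk3*, *Pdk4*, *Eno2*, *Hmox1*, *Edn1*, *Ak4* and the isoenzyme shares was not tested. Proliferation genes, in contrast, were high in the library numbered 1 of each group, with a summed level of 1625 and 831 TPM in WT and 1523 and 783 TPM in cKO.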

How the data were processed

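Per the labels and the study's methods, the authors removed adaptors (Trim Galore), used HISAT2 2.1.0 for alignment to mm10 and quantified genes with StringTie 1.3.3. They deposited unnormalized counts per gene symbol and, for each library, TPM values from StringTie. The annotation and the strand setting of the counting are not given in the sources used here, so overlapping genes on opposite strands, and near-identical copies, may share reads. Of each TPM file, 1 line that holds the total and names no gene was left out.

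From the counts, 18547 genes passed filterByExpr (minimum count 10, minimum total 15) and were fitted without covariates in edgeR 4.0.16 (TMM, glmQLFit, glmQLFTest, R 4.3.3). P-values were two-sided and adjusted by Benjamini-Hochberg over all genes, and calls were made at an unadjusted p under 0.05. The TMM factors were 1.02 and 1.04 in WT and 0.966 and 0.973 in cKO, and the common biological coefficient of variation was 0.557. A count of 3, taken as the floor, is 0.0455 to 0.0491 CPM, for counting error only. Scripts were tested on simulated data. No pair of libraries agreed within sampling noise (chi-square per gene 166 or more).

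DESeq2 1.42.0, limma 3.58.1 on log2 TPM, other filters and scalings, the sample number as a block, and each library left out were the alternatives. Libraries with the same number in their titles did not deviate together over all genes (correlation of deviations -0.0544). Proliferation genes were an exception, high in the library numbered 1 of each group.

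The members, lists and tests were chosen with earlier results of these data known. Named genes are *Hif1a*, *Sirt6*, members and pathway genes with an unadjusted p under 0.05, the highest and lowest fold change and the highest TPM of each role group, and the extremes of each pathway list. Members named beyond that rule were chosen after their values were seen. Positions are from GENCODE on GRCm38 and promoters from RefSeq on GRCm38.p6. Of the other HIF1 targets, 1 gene is not reported here and is left out of the list.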

Additional observations from a re-analysis of the deposited data

How the results depend on the processing

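*Pdk4* and *Eno2* kept an unadjusted p under 0.05 in all 12 alternatives, and *Hif1a* in none. Between 2 and 3 members were higher with a library left out. The median log2 fold change of the members was 0.06, against -0.03 with library size alone, -0.01 with upper quartile normalization, 0.09 with the sample number as a replicate block, and 0.04 to 0.11 with a library left out, highest without the library labelled *Sirt6* cKO 2. With library size alone, 1 member (*Eno1*) was lower. The replicate block gave 697 genes higher and 449 lower over all genes, and changed no call count of the members or of the 5 pathway lists, while calls in the marker lists were not counted under it. Over all genes the numbers do not pair the libraries. With a library left out, genes called ranged from 0 to 4 among other glycolysis genes (4 without *Sirt6* cKO 2, 3 without WT 1, and 1 with DESeq2), 0 to 2 in gluconeogenesis (0 without *Sirt6* cKO 1), 0 to 1 in the pentose phosphate pathway, 0 to 1 among HIF partners, and 3 to 9 among other HIF1 targets (3 without *Sirt6* cKO 1, 9 without WT 1). The causes were not tested. The difference in *Eno2* share was 4.42 percentage points by TPM and 6.39 by CPM. For single genes, 12 values no longer passed the unadjusted threshold, 3 newly passed it and 525 stayed on the same side of it. Over all genes, 1 passed an adjusted p of 0.05 with edgeR and 354 with DESeq2. With 2 libraries a group, modest changes of low genes such as *Vegfa* could not be seen.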
